A study of Homo sapiens with 12 samples.

Results

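Aminoacyl-tRNA synthetases were followed in SUM159, an established triple-negative breast cancer cell line, across loss of the zinc finger transcription factor E4F1 and treatment with gemcitabine, a deoxycytidine analogue that blocks DNA synthesis. The genes were taken as a fixed list of 36 symbols, 20 cytosolic and 16 mitochondrial (the symbols ending in 2), out of 23374 genes found in any of the 4 comparison tables, and all 36 had a value and an adjusted p in every table. Polyadenylated RNA was sequenced in 12 libraries, 3 in each of 4 groups: a control hairpin (shCTRL) or one that targets E4F1 (shE4F1), each left untreated or given 140 nM gemcitabine for 24 h. All groups therefore carry a hairpin, only 1 hairpin label per arm is given, and no label states that a group's libraries came from separate cultures, so the p-values may reflect technical spread alone. RNA came from whole cultures, in which fewer expressing cells and less RNA per cell cannot be told apart.

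All values below rest on comparison tables that the authors deposited; values per library were not used, because the count columns could not be matched to the labels, and depth per library is unknown here. A log2 fold change is given as value ± its standard error (SE), "rose" and "fell" are kept for genes with an adjusted p under 0.05 in the authors' DESeq2, and a level is a mean normalised read count. E4F1 itself had a log2 fold change of -0.99 ± 0.26 in untreated shE4F1 cells (adjusted p = 0.000778) and one of -0.91 ± 0.16 under gemcitabine (adjusted p = 1.47e-07) in the authors' deposited tables. As for the cell type, the mesenchymal gene VIM had a mean normalised count of 66531 and the epithelial cadherin gene CDH1 one of 5.34 in the authors' deposited table of untreated cells.

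Aminoacyl-tRNA synthetases join each amino acid to its tRNA, the step that fixes the genetic code, and the cytosol and the mitochondrion use largely separate sets of these enzymes, all encoded in the nucleus. GARS and KARS serve both compartments from 1 gene, EPRS joins glutamate and proline in 1 protein, and FARSA and FARSB are the 2 subunits of cytosolic phenylalanyl-tRNA synthetase. Many cytosolic members are known targets of ATF4, the transcription factor of the amino acid and stress response, which binds a composite C/EBP-ATF response element.

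The first comparison asks what E4F1 knockdown did to these genes in untreated cells. Of the 20 cytosolic synthetase genes 14 fell and none rose, whereas of the 16 mitochondrial genes 4 fell and 1 rose. Among all 19472 genes tested 19.3% fell and 17.5% rose. The median log2 fold change was -0.68 for the cytosolic set, -0.07 for the mitochondrial set and -0.01 for all genes tested; the difference between the sets was not tested. At an unadjusted p under 0.05 of the authors' DESeq2, 16 cytosolic genes were lower and still 0 were higher.

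The cytosolic falls were led by MARS, the methionyl-tRNA synthetase gene that also serves initiation (ENSG00000166986, chromosome 12, 57475445 to 57517569, plus strand, GRCh38). Its mean and fold change in the authors' deposited table imply a level of 3578 in shE4F1 against 11186 in shCTRL cells, a log2 fold change of -1.64 ± 0.19 (adjusted p = 2.02e-16). Of the exon bases of MARS, 12.4% are shared with DDIT3 and ARHGAP9 on the opposite strand, and DDIT3 stood at -1.59 ± 0.23 in the authors' deposited table. The strand setting of the counting is not given in the sources used here. The 2 genes moved apart with gemcitabine in shCTRL cells, where DDIT3 was at 0.78 ± 0.21 and MARS at -0.65 ± 0.19 in the authors' deposited table.

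GARS, for glycine (ENSG00000106105, chromosome 7, 30594681 to 30634033, plus strand), was at an implied level of 6780 against 18021, a log2 fold change of -1.41 ± 0.18 (adjusted p = 1.85e-13) in the authors' deposited table. AARS, for alanine (ENSG00000090861, chromosome 16, 70252295 to 70289543, minus strand), was at 6405 against 16798, or -1.39 ± 0.16 (adjusted p = 7.07e-16). TARS, for threonine (ENSG00000113407, chromosome 5, 33440696 to 33469539, plus strand), was at 7782 against 18450, or -1.25 ± 0.17 (adjusted p = 1.54e-12), also from the authors' deposited table. As fractions of the shCTRL level these are 0.320 for MARS, 0.376 for GARS, 0.381 for AARS and 0.422 for TARS.

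The other 10 fell less. WARS, the tryptophanyl enzyme that interferon also induces, was at an implied level of 3184 against 6364 in the authors' deposited table. In log2 fold change SARS for serine at -0.95 ± 0.17, YARS for tyrosine at -0.86 ± 0.17, CARS for cysteine at -0.77 ± 0.16 and NARS for asparagine at -0.75 ± 0.17 in the authors' deposited table. DARS for aspartate was at -0.69 ± 0.15, IARS for isoleucine at -0.66 ± 0.16, EPRS at -0.65 ± 0.16, FARSB at -0.52 ± 0.15 and VARS for valine at -0.34 ± 0.13 in the authors' deposited table. The VARS call (adjusted p = 0.0257) ended when fold changes were centred on the median of genes (adjusted p = 0.0630).

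The 6 cytosolic genes without a call lay between -0.36 and 0.29 in the authors' deposited table: FARSA at -0.36 ± 0.16 (adjusted p = 0.0629), LARS for leucine at -0.33 ± 0.15 (adjusted p = 0.0710), RARS for arginine at -0.11 ± 0.15, KARS for lysine at 0.02 ± 0.14, HARS for histidine at 0.12 ± 0.13 and QARS for glutamine at 0.29 ± 0.16. FARSA and FARSB, which encode subunits of 1 enzyme, were thus both below 0, with a call for FARSB alone; the difference between them was not tested. For KARS the 95% interval ran from -0.26 to 0.31 and for HARS from -0.13 to 0.37.

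Of the mitochondrial genes the largest fall was that of NARS2, the mitochondrial asparaginyl enzyme (ENSG00000137513, chromosome 11, 78435961 to 78574874, minus strand). It had an implied level of 1006 in shE4F1 against 1786 in shCTRL cells, a log2 fold change of -0.83 ± 0.14 (adjusted p = 1.29e-07) in the authors' deposited table. VARS2 was at -0.68 ± 0.14 (adjusted p = 8.32e-06), WARS2 at -0.60 ± 0.15 (adjusted p = 0.000240) and SARS2 at -0.75 ± 0.28 (adjusted p = 0.0207), by the authors' deposited table. SARS2 had a mean normalised count of only 76.0, the lowest of the 36, and shares 46.2% of its exon bases with an overlapping gene model on the same strand; VARS2 shares 22% with GTF2H4. How the authors' counting assigned reads in such overlaps is not given in the sources used here. A further 11 genes (AARS, CARS, FARSB, GARS, KARS, NARS, RARS, WARS, IARS2, TARS2 and WARS2) have a named pseudogene, with which their reads may be divided.

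LARS2, for leucine in mitochondria (ENSG00000011376, chromosome 3, 45388506 to 45549421, plus strand), was the single synthetase gene that rose, from an implied 1208 to 1774, or 0.55 ± 0.16 (adjusted p = 0.00165) in the authors' deposited table. The other 11 mitochondrial genes had no call and lay between EARS2 at -0.25 ± 0.14 and PARS2 at 0.37 ± 0.20 in the authors' deposited table. AARS2, MARS2 and TARS2, the mitochondrial counterparts of 3 of the 4 most reduced cytosolic genes, were at -0.16 ± 0.16, 0.22 ± 0.18 and -0.04 ± 0.20.

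Promoters of the synthetase genes were searched for 3 motifs on both strands in windows of 250 bases before to 50 bases after the gene start, which RefSeq (GRCh38.p14) gives for 27 of the 36 genes. The core of the C/EBP-ATF response element, TGATGNAA, lay in 5 of 14 cytosolic windows (35.7%), 1 of 13 mitochondrial windows (7.69%) and 3.67% of all 27305 windows of this length. The 5 cytosolic windows were those of AARS, CARS, IARS, NARS and TARS, all of which fell in untreated shE4F1 cells; they are shown because they carry 1 shared 8-base word on either strand, TGATGCAA, while the mitochondrial match, in YARS2, reads TGATGGAA. Each line is 5′ to 3′ along the gene, with the match in capitals.
AARS, chr16:70289675-70289704, minus strand: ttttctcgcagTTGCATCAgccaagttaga
CARS, chr11:3057407-3057436, minus strand: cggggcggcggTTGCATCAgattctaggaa
IARS, chr9:92293692-92293721, minus strand: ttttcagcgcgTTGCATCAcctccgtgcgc
NARS, chr18:57621804-57621833, minus strand: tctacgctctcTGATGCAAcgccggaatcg
TARS, chr5:33440956-33440985, plus strand: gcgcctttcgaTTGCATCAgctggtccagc
YARS2, chr12:32756076-32756105, minus strand: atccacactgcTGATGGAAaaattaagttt

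YARS2 stood at -0.01 ± 0.15 in the authors' deposited table. The matches began 13 bases before the gene start in IARS, 2 bases before it in CARS, and 187 bases before it in AARS. Of the 10 cytosolic genes that fell and had a window, 5 held the word and 5 did not (EPRS, FARSB, GARS, SARS and WARS), and it was in none of the 4 windows of cytosolic genes without a call (FARSA, HARS, KARS and RARS). The DARS, LARS, MARS, QARS, VARS, YARS, AARS2, TARS2 and VARS2 windows were not analysed here. A match describes letters in this window, not a bound site. The upstream 250 bases of AARS and IARS follow, 5′ to 3′ along the gene with the match in capitals. In these 2 cytosolic genes the match lies wholly before the RefSeq start. By GENCODE 29 the IARS gene starts at 92293756 on the minus strand, so its match lies within the gene. The matches of CARS, NARS and TARS also lie within the GENCODE 29 genes. AARS fell in both conditions, and IARS fell untreated and rose under gemcitabine.
AARS upstream: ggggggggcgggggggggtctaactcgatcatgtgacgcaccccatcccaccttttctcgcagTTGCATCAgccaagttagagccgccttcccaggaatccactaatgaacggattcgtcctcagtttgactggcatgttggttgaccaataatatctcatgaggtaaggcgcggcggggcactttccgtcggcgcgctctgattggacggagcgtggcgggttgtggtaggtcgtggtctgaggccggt
IARS upstream: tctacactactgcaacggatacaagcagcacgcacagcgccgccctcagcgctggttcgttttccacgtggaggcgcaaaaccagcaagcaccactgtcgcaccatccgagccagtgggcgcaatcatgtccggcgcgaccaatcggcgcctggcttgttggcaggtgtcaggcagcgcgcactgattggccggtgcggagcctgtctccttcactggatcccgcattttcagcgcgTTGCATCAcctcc

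The other 2 motifs were rarer in the cytosolic windows. TGACGTNA, a core shared by cyclic AMP response elements and by the ATF-like site described for E4F1, lay in none of the 14 cytosolic windows, in 1 of 13 mitochondrial windows and in 3.18% of all windows. That 1 window was NARS2, the most reduced mitochondrial gene, and its match began 9 bases after the RefSeq gene start, shown here in capitals.
NARS2, chr11:78574837-78574866, minus strand: ccgtagcgtgaTGACGTAAgcggcgttggc
The E-box CACGTG lay in 1 of 14 cytosolic windows (IARS) and in 7.43% of all windows. In the mitochondrial set it lay in 3 of 13 windows (23.1%), those of CARS2, EARS2 and MARS2. By GENCODE 29 the CARS2 gene starts at 110713603 on the minus strand, so its site, within 110706502 to 110706529, lies well inside the gene. None of the 3 mitochondrial genes with an E-box had a call in untreated shE4F1 cells. CARS2 was at 0.21 ± 0.15, EARS2 at -0.25 ± 0.14 and MARS2 at 0.22 ± 0.18 in the authors' deposited table.

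The second comparison asks the same of the knockdown under gemcitabine. Here 11 of 20 cytosolic genes fell and 2 rose, and 1 of 16 mitochondrial genes fell and 4 rose, beside 20.8% of 22433 tested genes that fell and 20.3% that rose. The medians moved to -0.25 for the cytosolic set and 0.04 for the mitochondrial set. Taken from the other 2 tables of the triangle, with larger SEs, 2 cytosolic genes fell and none rose, and no mitochondrial gene was called; the 2 were AARS and TARS.

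TARS and AARS again led. TARS was at an implied level of 11185 in shE4F1 against 20073 in shCTRL cells, or -0.84 ± 0.09 (adjusted p = 1.54e-18), and AARS at 12017 against 20003, or -0.74 ± 0.09 (adjusted p = 2.87e-15), in the authors' deposited table. RARS, without a call in untreated cells, fell by 0.52 ± 0.09 (adjusted p = 2.06e-07) in the authors' deposited table. MARS was at -0.42 ± 0.10, WARS at -0.37 ± 0.10, FARSA at -0.37 ± 0.11, FARSB at -0.36 ± 0.09, DARS at -0.32 ± 0.09, VARS at -0.32 ± 0.10, GARS at -0.27 ± 0.10 and LARS at -0.24 ± 0.09 in the authors' deposited table. The calls of these 9 genes, RARS among them, were lost in the other 2 tables of the triangle (adjusted p from 0.0930 for RARS to 0.540 for GARS).

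Cytosolic genes that rose under gemcitabine were QARS, at 0.46 ± 0.11 (adjusted p = 0.000100), and IARS, at 0.25 ± 0.09 (adjusted p = 0.0251), by the authors' deposited table. CARS, EPRS, NARS, SARS and YARS, which fell in untreated cells, had no call under gemcitabine, with 0.00 ± 0.09, 0.08 ± 0.11, -0.09 ± 0.10, -0.23 ± 0.10 and -0.13 ± 0.09 in the authors' deposited table. Of the 14 cytosolic genes that fell untreated, 8 also fell under gemcitabine, 5 had no call and 1, IARS, was called in the opposite direction.

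Among mitochondrial genes NARS2 fell again, at -0.50 ± 0.11 (adjusted p = 1.67e-05), by the authors' deposited table. PARS2, the mitochondrial prolyl enzyme (ENSG00000162396, chromosome 1, 54756898 to 54764514, minus strand), had the largest rise of the 36, from an implied level of 257 to 419, or 0.71 ± 0.14 (adjusted p = 1.90e-06) in the authors' deposited table. LARS2 was at 0.35 ± 0.10, RARS2 at 0.34 ± 0.10 and IARS2 at 0.25 ± 0.09 in the authors' deposited table. LARS2 was the only synthetase gene called higher in both knockdown tables, and NARS2 the only mitochondrial one called lower in both. In the other 2 tables of the triangle the calls of NARS2 (adjusted p = 0.0819), PARS2 (0.0649), LARS2 (0.414), RARS2 (0.318) and IARS2 (0.600) were lost.

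**Figure D1:**
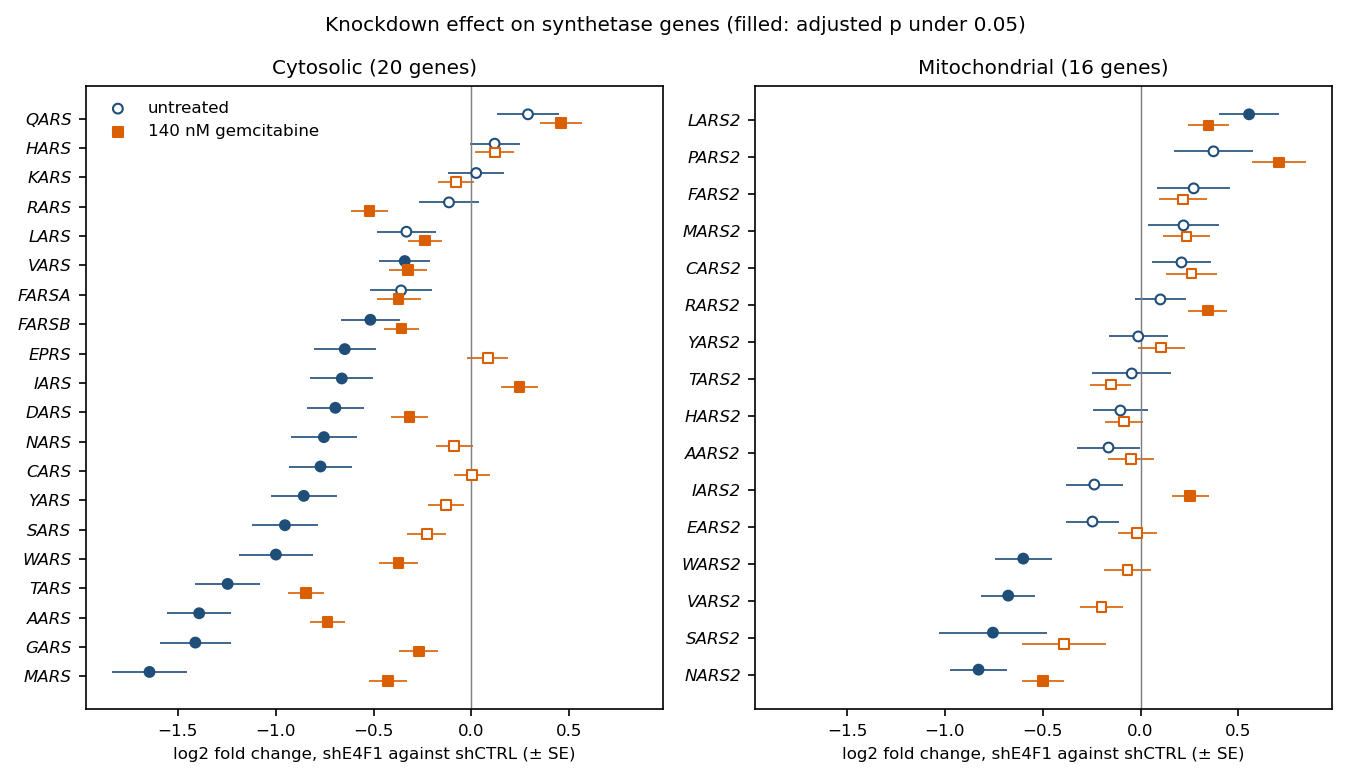
Log2 fold change of shE4F1 against shCTRL (horizontal axis, ± SE) for the 20 cytosolic and 16 mitochondrial genes, in untreated cells (circles) and under 140 nM gemcitabine (squares), with filled symbols for an adjusted p under 0.05. Untreated cytosolic values run from -1.64 to 0.29 with 14 filled circles below 0, while mitochondrial values run from -0.83 to 0.55 with 4 filled circles below 0 and 1 above.

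Whether the knockdown effect itself differed between the 2 conditions was tested as the difference between both tables, which share no library. Among cytosolic genes 9 of 20 had a higher value under gemcitabine and none a lower one (1, RARS, at an unadjusted p under 0.05), against 2.81% and 2.63% of 20923 genes. No mitochondrial gene was called in a two-sided normal test with Benjamini-Hochberg adjustment, while 3 of the 16 were higher and 0 lower at an unadjusted p under 0.05. The differences for the 9 genes were 1.22 ± 0.21 for MARS, 1.14 ± 0.21 for GARS, 0.91 ± 0.19 for IARS, 0.77 ± 0.19 for CARS, 0.73 ± 0.19 for EPRS, 0.73 ± 0.19 for YARS, 0.73 ± 0.19 for SARS, 0.67 ± 0.19 for NARS and 0.66 ± 0.19 for AARS. Through the other tables of the triangle, whose summed SE is larger, 1 of the 9 calls was kept, that of MARS.

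TARS had a difference of 0.40 ± 0.19 that did not pass the test (adjusted p = 0.241). WARS, at 0.63 ± 0.21, was just short of it (adjusted p = 0.0540). VARS, LARS, HARS and FARSA had differences of 0.02 ± 0.16, 0.09 ± 0.17, 0.00 ± 0.16 and -0.01 ± 0.20. RARS was the cytosolic gene with the most negative difference, -0.41 ± 0.18, without a call (adjusted p = 0.196). The mitochondrial genes with the largest differences were WARS2 at 0.53 ± 0.19 (adjusted p = 0.0751), IARS2 at 0.49 ± 0.17 (adjusted p = 0.0732) and VARS2 at 0.48 ± 0.18 (adjusted p = 0.0923).

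**Figure D2:**
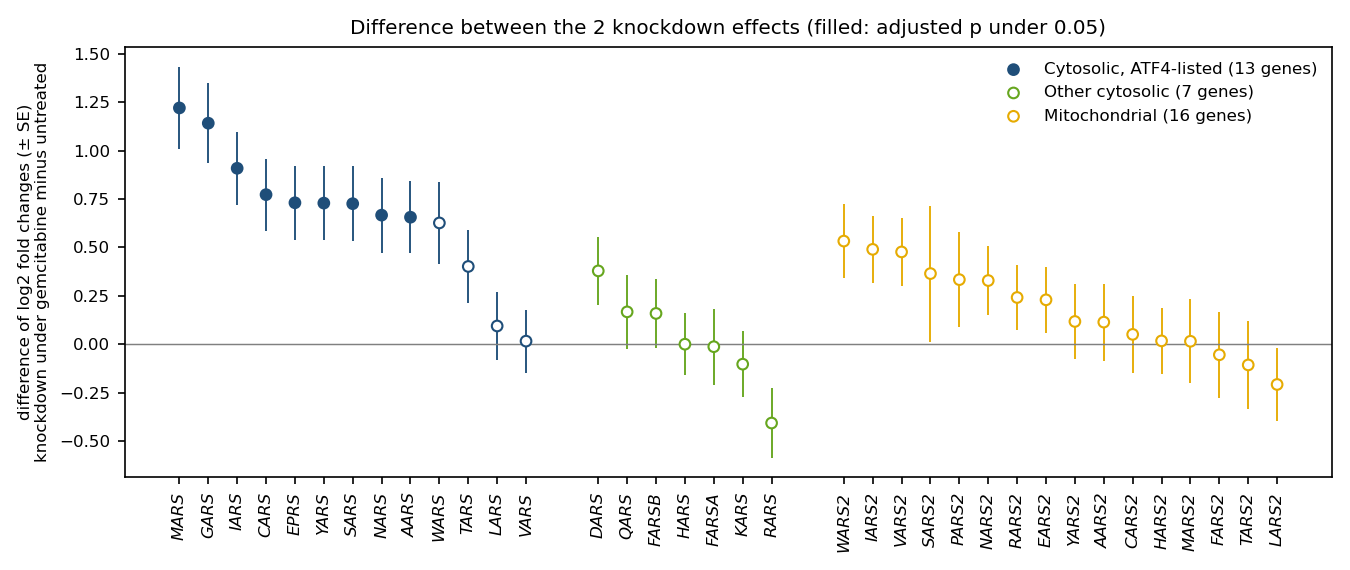
Difference of log2 fold changes, knockdown under gemcitabine minus knockdown untreated (vertical axis, ± SE), for each synthetase gene in 3 groups, with filled symbols for an adjusted p under 0.05. The 9 filled symbols, from 0.66 for AARS to 1.22 for MARS, all belong to the 13 cytosolic genes listed as ATF4-responsive; the other 7 cytosolic genes lie between -0.41 and 0.38.

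Gemcitabine alone was then compared with no treatment in shCTRL cells. It lowered 6 of 20 cytosolic and 5 of 16 mitochondrial genes and raised none of the 36, beside 13.5% of 20002 tested genes that fell and 14.5% that rose, and at an unadjusted p under 0.05 of the authors' DESeq2 still none was higher. Both sets had a median of -0.10. EPRS, the fused glutamyl-prolyl enzyme, fell from an implied level of 14891 to 7644, or -0.96 ± 0.16 (adjusted p = 3.68e-08), and IARS from 23711 to 12330, or -0.94 ± 0.17 (adjusted p = 2.68e-07), in the authors' deposited table. GARS was at -0.83 ± 0.18, MARS at -0.65 ± 0.19, NARS at -0.59 ± 0.17 and CARS at -0.56 ± 0.16 in the authors' deposited table.

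All 6 cytosolic genes that fell with gemcitabine also fell with the knockdown in untreated cells, where 14 of the 20 cytosolic genes fell. Of the 5 mitochondrial genes that fell with gemcitabine, 2 also fell with the knockdown, VARS2 and WARS2. The overlap over all genes was not computed, and both comparisons share the untreated shCTRL libraries. AARS and TARS, near the top of the knockdown list, stood at 0.05 ± 0.16 and -0.07 ± 0.17 with gemcitabine in the authors' deposited table, and WARS stood at -0.03 ± 0.19. IARS2 was the most reduced mitochondrial gene at -0.79 ± 0.15 (adjusted p = 2.00e-06), followed by WARS2 at -0.70 ± 0.15, VARS2 at -0.53 ± 0.14, RARS2 at -0.51 ± 0.13 and EARS2 at -0.34 ± 0.14 in the authors' deposited table. The EARS2 call (adjusted p = 0.0494) ended with centring on the median of genes (adjusted p = 0.124) and in the other tables of the triangle (adjusted p = 0.193).

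In shE4F1 cells no synthetase gene was called with gemcitabine. This effect was derived as the table of both changes minus the untreated knockdown table, and its SE counts the shared shCTRL libraries and is too large. Few genes were called among all tested: 0.925% of 21080 rose and 0.185% fell. In the two-sided normal test 4 cytosolic genes were higher at an unadjusted p under 0.05, AARS at 0.70 ± 0.24, WARS at 0.58 ± 0.27, SARS at 0.58 ± 0.24 and MARS at 0.55 ± 0.27, and none of the 36 was lower. EPRS and IARS were at -0.26 ± 0.23 and -0.07 ± 0.23. The median was 0.11 for the cytosolic and -0.06 for the mitochondrial set.

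Set against untreated shCTRL cells, shE4F1 cells under gemcitabine had 10 of 20 cytosolic genes lower and none higher, and 5 of 16 mitochondrial genes lower and 1 higher, beside 16.3% of 19724 tested genes that fell and 15.8% that rose. The cytosolic median was -0.43 and the mitochondrial median -0.12. At an unadjusted p under 0.05 of the authors' DESeq2, 15 cytosolic genes were lower and 0 higher. GARS was at -1.12 ± 0.18, MARS at -1.09 ± 0.19, TARS at -0.92 ± 0.17, EPRS at -0.91 ± 0.17, IARS at -0.73 ± 0.17, NARS at -0.70 ± 0.18, DARS at -0.69 ± 0.16, AARS at -0.69 ± 0.17 and CARS at -0.59 ± 0.17 in the authors' deposited table. YARS, at -0.45 ± 0.17 in the authors' deposited table, had a call (adjusted p = 0.0323) that ended with centring (adjusted p = 0.0681) and in the other tables of the triangle (adjusted p = 0.0990).

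For the mitochondrial set the same comparison gave NARS2 at -0.84 ± 0.16, WARS2 at -0.79 ± 0.16, VARS2 at -0.75 ± 0.15, IARS2 at -0.57 ± 0.16, EARS2 at -0.38 ± 0.15 and PARS2 at 0.70 ± 0.19 in the authors' deposited table. The EARS2 call (adjusted p = 0.0390) also ended with centring (adjusted p = 0.0896) and in the other tables (adjusted p = 0.134). In 12 of the 20 cytosolic and 8 of the 16 mitochondrial genes the values of the 3 groups against untreated shCTRL were all below 0. These 3 comparisons share the untreated shCTRL libraries, and the share over all genes was not computed. The values of EPRS were -0.65 with the hairpin alone, -0.96 with gemcitabine alone and -0.91 with both, in the authors' deposited tables. AARS followed another order, with -1.39, 0.05 and -0.69 in the authors' deposited tables.

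**Figure D3:**
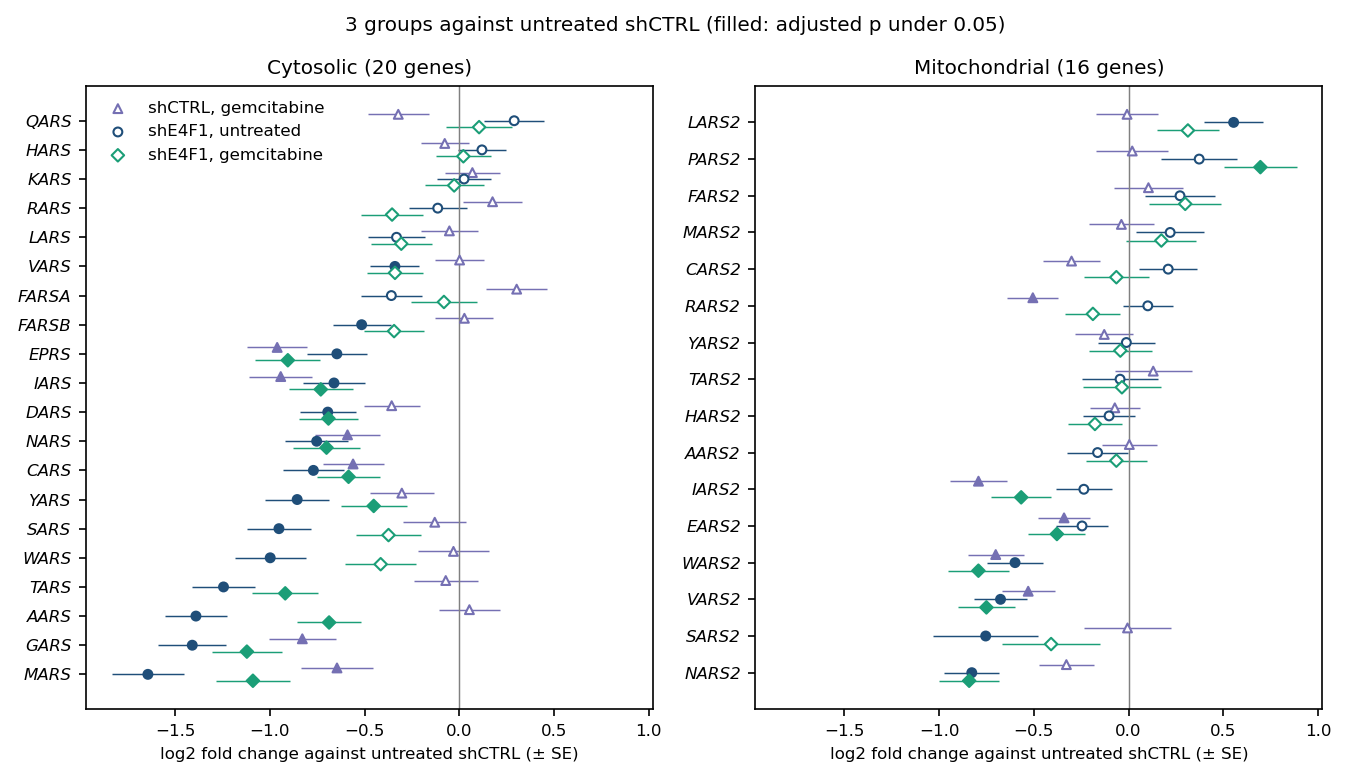
Log2 fold change against untreated shCTRL cells (horizontal axis, ± SE) of shCTRL cells under gemcitabine (triangles), untreated shE4F1 cells (circles) and shE4F1 cells under gemcitabine (diamonds) for each gene, with filled symbols for an adjusted p under 0.05; the 3 comparisons share the untreated shCTRL libraries. EPRS lies at -0.96, -0.65 and -0.91, whereas AARS lies at 0.05, -1.39 and -0.69, in that order of groups.

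The genes were next grouped by what is known of the enzymes. A list of 13 cytosolic genes recalled from earlier work as ATF4-responsive (AARS, CARS, EPRS, GARS, IARS, LARS, MARS, NARS, SARS, TARS, VARS, WARS and YARS) had 12 members lower and none higher in untreated shE4F1 cells, with a median of -0.86. The other 7 cytosolic genes had 2 lower, DARS and FARSB, and a median of -0.11. Of all genes tested there 19.3% fell, and the count of 2 of 7 is near that share. Under gemcitabine the counts were 7 lower and 1 higher of 13 (median -0.24) and 4 lower and 1 higher of 7 (median -0.32). All genes tested there had 20.8% lower and 20.3% higher. The 2 groups thus no longer stood apart in their medians. With gemcitabine in shCTRL cells 6 of 13 and 0 of 7 were lower, beside 13.5% of all genes tested. A count of 0 among only 7 genes is near that share. Of the 7, DARS came nearest to a call, at -0.36 ± 0.15 (adjusted p = 0.0539), by the authors' deposited table. The list was chosen with earlier results of these data known and is no independent evidence of its direction.

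The gene of ATF4 itself stood, in the authors' deposited tables, at -1.02 ± 0.14 with the knockdown in untreated cells, 0.03 ± 0.12 with the knockdown under gemcitabine and -1.28 ± 0.15 with the drug alone. Its difference between the 2 knockdown effects was 1.05 ± 0.18 (two-sided normal test, adjusted p = 3.44e-06). Of 14 reference genes of the ATF4 axis 13 were lower and 0 higher in untreated shE4F1 cells (median -1.64), beside 19.3% and 17.5% of all genes tested. With the knockdown under gemcitabine 8 were lower and 2 higher (median -0.49), beside 20.8% and 20.3%. The 2 higher are near the share of all genes. The part of ATF4 in the synthetase values was not tested.

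Synthetases fall into 2 unrelated structural classes, class I with a Rossmann-fold catalytic domain and class II with an antiparallel sheet; EPRS holds a domain of each and was counted in class I. In untreated shE4F1 cells 9 of 19 class I genes fell and 1 rose, and 9 of 17 class II genes fell and none rose, with medians of -0.33 and -0.52. With gemcitabine in shCTRL cells 9 of 19 class I genes and 2 of 17 class II genes, GARS and NARS, fell, beside 13.5% of all genes tested, with medians of -0.32 and -0.01; the class II count is near the share of all genes. Under gemcitabine the knockdown gave 5 class I genes lower and 5 higher, and 7 class II genes lower and 1 higher, PARS2. Among all genes tested there 20.8% fell and 20.3% rose, and the class I counts of 5 of 19 are near these shares. The difference between the classes was not tested.

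Of the 8 enzymes that sit in the cytosolic multi-tRNA synthetase complex, 4 fell in untreated shE4F1 cells (MARS, DARS, IARS and EPRS). The other 4 had no call (LARS, RARS, KARS and QARS), and the median of the 8 was -0.49. Of all genes tested there 19.3% fell and 17.5% rose. The knockdown under gemcitabine gave 4 of the 8 lower and 2 higher, beside 20.8% and 20.3% of all genes tested. The 3 scaffold proteins of the complex did not move alike in untreated cells. AIMP2 fell by 0.99 ± 0.16 (adjusted p = 1.03e-08) and EEF1E1 by 0.45 ± 0.16 (adjusted p = 0.0190), while AIMP1 was at -0.02 ± 0.13 (adjusted p = 0.926), by the authors' deposited table. Under gemcitabine all 3 were lower in shE4F1 cells, with AIMP2 at -0.85 ± 0.12, AIMP1 at -0.43 ± 0.10 and EEF1E1 at -0.36 ± 0.12 in the authors' deposited table.

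Pairs of genes for the same amino acid were set side by side, 17 in all, since EPRS pairs with both EARS2 and PARS2 and FARS2 with both FARSA and FARSB. In untreated cells the cytosolic gene had the lower log2 fold change in 14 of 17 pairs, with a median difference of -0.63. In 4 pairs both genes fell (NARS and NARS2, SARS and SARS2, VARS and VARS2, WARS and WARS2), in 9 only the cytosolic gene was called lower, and in none only the mitochondrial gene. The widest gap was that of MARS and MARS2, at -1.64 and 0.22 in the authors' deposited table. VARS2 fell further than VARS, -0.68 against -0.34, and NARS2 and NARS lay side by side at -0.83 and -0.75, in the authors' deposited table. HARS and HARS2, whose exons overlap in opposite directions on chromosome 5, were at 0.12 and -0.10 with no call in any table.

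Under gemcitabine the cytosolic gene was the lower in 13 of 17 pairs, with a median difference of -0.31. RARS and RARS2 were called in opposite directions there, at -0.52 ± 0.09 and 0.34 ± 0.10 in the authors' deposited table, and LARS and LARS2 likewise, at -0.24 ± 0.09 and 0.35 ± 0.10. IARS and IARS2 both rose, each by 0.25 ± 0.09, and both fell with gemcitabine in shCTRL cells, by 0.94 ± 0.17 and 0.79 ± 0.15, in the authors' deposited tables. These 2 tables share the shCTRL gemcitabine libraries. In untreated cells, where the SEs were larger, LARS was at -0.33 ± 0.15 without a call and LARS2 at 0.55 ± 0.16. Differences within pairs were not tested.

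**Figure D4:**
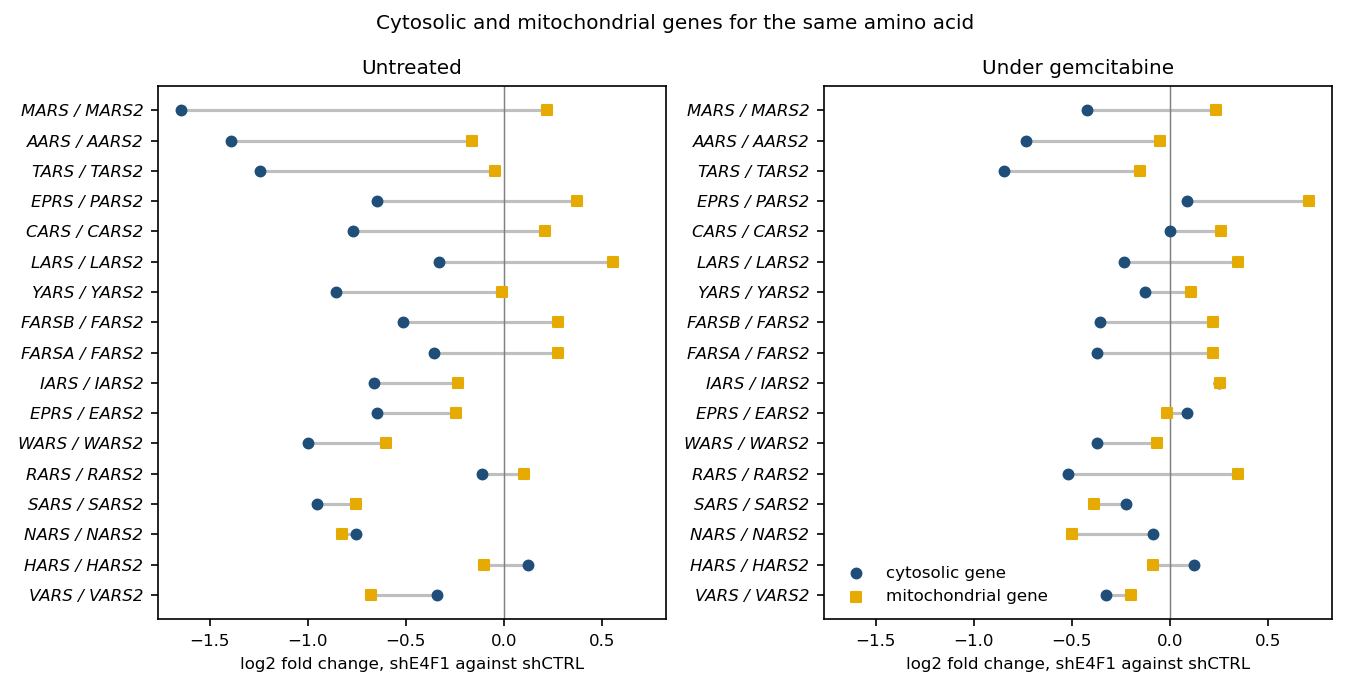
Log2 fold change of shE4F1 against shCTRL (horizontal axis) for the cytosolic gene (circle) and the mitochondrial gene (square) of each of 17 pairs, in untreated cells and under gemcitabine, in the order of the untreated difference. The circle lies left of the square in 14 pairs untreated and in 13 under gemcitabine; MARS and MARS2 are farthest apart in untreated cells, at -1.64 and 0.22.

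Cytosolic synthetase mRNAs were also the more abundant. Per kilobase of annotated exon (GENCODE 29, GRCh38), the implied level in untreated shCTRL cells ranged from 380 (HARS) to 4340 (GARS) normalised reads in the cytosolic set, with a median of 1820. In the mitochondrial set it ranged from 29.5 (SARS2) to 1721 (IARS2), with a median of 236. GARS and NARS, at 4340 and 4334, led without a clear order, and AARS (3734), TARS (3227) and SARS (3113) followed. In untreated shE4F1 cells KARS, at 2586 per kilobase, and NARS, at 2571, were the most abundant, and GARS was at 1633, AARS at 1424 and TARS at 1361. These levels carry no error of their own, and the exon lengths include transcripts that these cells need not make.

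Other genes that handle charged or maturing tRNA were called in both directions. Of 9 genes of transamidation, selenocysteine synthesis and trans-editing 3 fell and 1 rose in untreated shE4F1 cells, and 3 fell and 2 rose under gemcitabine. Among all genes tested 19.3% fell and 17.5% rose untreated, and 20.8% fell and 20.3% rose under gemcitabine. Calls in both directions are thus also found among all genes. GATB, a subunit of the amidotransferase that completes mitochondrial glutaminyl-tRNA, rose by 0.98 ± 0.16 untreated and 1.04 ± 0.10 under gemcitabine in the authors' deposited tables. PSTK and SEPSECS, which convert seryl-tRNA to selenocysteinyl-tRNA, fell by 1.13 ± 0.20 and 0.87 ± 0.16 untreated and by 0.53 ± 0.16 and 0.84 ± 0.13 under gemcitabine in the authors' deposited tables. DTD2, a deacylase that removes mischarged amino acids, was at -0.31 ± 0.16 untreated (adjusted p = 0.118) and rose by 0.42 ± 0.11 under gemcitabine in the authors' deposited tables.

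Of 12 tested genes of tRNA end maturation and export 3 fell and 1 rose in untreated shE4F1 cells, and of 13 tested under gemcitabine 3 fell and none rose, near the shares of all genes tested that fell, 19.3% and 20.8%. None of 4 tested cytosolic elongation factor genes was called in untreated shE4F1 cells, and none had an unadjusted p under 0.05 in the authors' DESeq2. With the knockdown under gemcitabine 3 rose, EEF1A1 by 0.55 ± 0.10 in the authors' deposited table. The same EEF1A1 fell by 0.83 ± 0.14 with the drug alone in the authors' deposited table, which shares the shCTRL gemcitabine libraries. None of 5 mitochondrial elongation factor genes was called in either knockdown table of the authors' DESeq2; at an unadjusted p under 0.05 none was in untreated cells and 1 was higher under gemcitabine. Of 78 mitochondrial ribosomal protein genes 30 fell and 4 rose in untreated shE4F1 cells (median -0.26), against 4 and 1 of the 16 mitochondrial synthetases (median -0.07).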

How the data were processed

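The submitters' processing notes name GRCh38.p7, TopHat2 2.1.1 with Bowtie2 2.2.9, bcl2fastq and FastQC, then HTSeq 0.9.0, and R 3.4.0 with DESeq2 1.14.1. What annotation release, strand setting or model formula was used is not given in the sources used here. Per the file headers, each of the 4 deposited tables holds a mean of normalized counts (a signal in units of scaled reads), a log2 fold change, its SE and a Wald score, and a p-value with its adjusted form, made by the authors with DESeq2 over all genes. Fold changes of low genes appear moderated towards 0: genes with a mean under 10 reached at most 2.57 (log2) in the deposited untreated knockdown table. Each table was normalized separately, so levels compare only within a table. None of the 12 columns of the count table matched a label, and none was used.

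From these tables the gemcitabine effect in shE4F1 cells and the difference between knockdown effects were computed as differences of log2 fold changes. Both used summed variances, a two-sided normal test and Benjamini-Hochberg adjustment over all genes (numpy 2.4.6, pandas 2.3.3, scipy 1.17.1, Python 3.11.15). Only the difference between knockdown effects was tried on simulated data, with independent noise drawn from the deposited SEs. The gemcitabine effect in shE4F1 cells, whose 2 tables share libraries, was not simulated. Implied group levels were solved from each mean and fold change for 3 and 3 libraries. The 36 genes closed the triangle of 3 tables within 0.0346 (log2). The median SE was 0.160 for cytosolic and 0.151 for mitochondrial genes in the untreated table. For the knockdown under gemcitabine it was 0.095 and 0.113, so a given fold change is called more readily there. The members and lists were chosen with earlier results of these data known. By rule, full values went to up to 8 cytosolic and 6 mitochondrial members with the largest absolute Wald scores, to those called against most of their set and to their pairs, and elongation, scaffold and transamidation genes could be named; ATF4, DDIT3, VIM and CDH1 fall outside it and were named after their values were seen. More members than the rule allows were also given values in some comparisons, among them every cytosolic member in the untreated knockdown. Alternatives were a threshold of 0.01, a minimum mean of 50, centring, and the other tables of the triangle.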

Additional observations from a re-analysis of the deposited data

Results flagged for a closer look

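For 9 cytosolic synthetase genes the knockdown effect differed between untreated cells and gemcitabine (two-sided normal test on the difference of both tables, Benjamini-Hochberg adjusted over all genes); every difference was towards a smaller fall or a rise under the drug. They were MARS (1.22, adjusted p = 3.03e-06), GARS (1.14, adjusted p = 6.95e-06), IARS (0.91, adjusted p = 0.000152), CARS (0.77, adjusted p = 0.00204), EPRS (0.73, adjusted p = 0.00552), YARS (0.73, adjusted p = 0.00583), SARS (0.73, adjusted p = 0.00739), NARS (0.67, adjusted p = 0.0165) and AARS (0.66, adjusted p = 0.0133). IARS was the single one of them called in opposite directions in the 2 conditions.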

How the results depend on the processing

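Of 828 values of the 36 genes recomputed under the alternatives, 779 kept their side of the threshold, 42 lost a call, 7 gained one, and none with a call changed sign; 26 without a call under either setting did. Taken from the other tables of the triangle, the knockdown under gemcitabine had 2 cytosolic genes lower (11 in the direct table), 0 higher (2), and 0 mitochondrial genes lower (1) or higher (4), and the difference between knockdown effects had 1 cytosolic gene higher (9); the summed SE of this route is larger by construction. At a threshold of 0.01, 1 cytosolic gene was higher in the knockdown under gemcitabine. With a minimum mean of 50, which tests fewer genes, 1 mitochondrial gene, IARS2, had a higher difference between knockdown effects (adjusted p = 0.0499). All other counts of members called stayed within 1.5 times. Leaving out replicates was not run, and no paired analysis was possible because the count columns carry no label or replicate number. Depth limits SARS2 most, at an SE of 0.277 in the untreated table.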
